A study of Mus musculus with 15 samples.

Results

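The genes described here are the core of the canonical Wnt switch: the destruction complex that holds β-catenin down (Apc, Axin1, Gsk3b, Csnk1a1, and Btrc, which hands phosphorylated β-catenin to the proteasome), β-catenin itself (Ctnnb1), and the 4 Tcf/Lef transcription factors it joins on DNA (Tcf7, Tcf7l1, Tcf7l2, Lef1). They were chosen by name, as probes on the array that carry these genes, and all 10 were found among the 27768 features measured, through 29 probes and 47 spots. Both Tcf7l1 probes are named Tcf3 in the array design, an older symbol, and were assigned by their RefSeq accession. Without a Wnt signal the complex phosphorylates β-catenin, which is then ubiquitinated and degraded. When the complex fails, as after loss of Apc in intestinal tumors, β-catenin accumulates, enters the nucleus and turns Tcf/Lef factors from repressors into activators. In the intestine Tcf7l2 is the factor best known for maintaining crypt stem cells, Tcf7l1 is known mainly as a repressor, and Tcf7 and Lef1 are expressed in T cells and are themselves Wnt targets.

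Every group carried 1 mutant copy of Apc, since the animals were male mice of the strain Apc(+/Min-FCCC), background C57BL/6J, aged 6 to 8 weeks at colonoscopy. The Min allele encodes a truncated protein, and an array probe reads RNA of the mutant and the intact copy together. Laser-microdissected adenoma cells came from tumor-bearing mice on untreated chow (untreated adenoma, 3 arrays) or on chow with sulindac at 300 ppm and atorvastatin at 100 ppm for 7 days (treated adenoma, 4 arrays). Microdissected normal epithelium came from tumor-free mice (tumor-free epithelium, 4 arrays) and from tumor-bearing mice (tumor-bearing epithelium, 4 arrays), both labelled as given atorvastatin alone at 100 ppm. The protocol text places tumor-bearing mice only on untreated chow or on both drugs, and the labels were followed. Sulindac is a cyclooxygenase inhibitor and atorvastatin a statin, which blocks cholesterol synthesis. In every comparison of adenoma with epithelium, tissue and drug exposure cannot be told apart.

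Across the 15 arrays, 56.5% to 75.5% of spots were well above background. In 6 pairs of arrays of the same group the signals differed by less than the noise between replicate spots, against 15 pairs that differed by more, so near-identical arrays were averaged. This left 2 samples for each adenoma group and 3 for each epithelium group. The labels speak of biological replicates but do not name the mice, so p-values measure the spread between these samples. The second tumor-free and the second tumor-bearing epithelium arrays, from different groups, also nearly coincided (robust, MAD-based SD of their log2 difference 0.183, spot noise 0.178, next closest pair of different groups 0.618), and results are given without them where that changes a call. The fourth tumor-bearing epithelium array often stood apart from the others of its group. Of 10 epithelial genes, among them Epcam, Cdh1 and the keratins Krt8 and Krt18, all 10 were well above background on every array. This does not tell epithelium from mixed tissue, since 9 of 9 fibroblast and 8 of 8 macrophage genes were so too. Levels below are log2 intensities relative to the 75th percentile of each array, and a difference was called when limma's adjusted p, over all genes tested, was under 0.05.

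Of the 29 probes, 6 span more genome than their own length in the array design and so cross an intron. Of these, 4 are shown because each reads the spliced RNA of the gene it names, and because the Lef1 and Btrc probes decide what can be said of those genes below. The Lef1 probe (mm7, chr3:131041424-131059585, plus strand) is printed as far as the stop codon that ends its open frame, in capitals, and the others whole. The Gsk3b probe lies at chr16:37894702-37898347, the Axin1 probe at chr17:24377327-24378214 and the Btrc probe at chr19:45413000-45413966, all on the plus strand of mm7.
Lef1: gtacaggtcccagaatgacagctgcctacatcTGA
Gsk3b: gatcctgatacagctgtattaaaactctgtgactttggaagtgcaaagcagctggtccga
Axin1: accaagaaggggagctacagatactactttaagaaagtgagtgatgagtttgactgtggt
Btrc: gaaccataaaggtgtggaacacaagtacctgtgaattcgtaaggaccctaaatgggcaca

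The main contrast was between adenoma and epithelium. Tcf7 and Lef1 were higher in adenoma, by 10.9-fold and 25.9-fold, and Tcf7l1 was 14.5-fold lower, while the other factor, Tcf7l2, and the 5 tested genes of the complex and β-catenin were not called. Thus 3 of 9 tested members were called, 2 higher and 1 lower, where 21.7% of all genes tested were called (9.13% higher and 12.6% lower). All 3 were Tcf/Lef factors, and in all 3 the 4 adenoma samples did not overlap the 6 epithelium samples, as was so for 17.4% of all genes tested. The median difference of the 9 members was 0.55 on the log2 scale, against -0.17 for all genes tested.

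Tcf7 encodes Tcf1, a factor first studied in T cells. Its brightest probe (mm7, chr11:52209369-52209428, minus strand) read 2.30, 2.29 and 2.52 on the 3 untreated adenoma arrays. On the treated adenoma arrays it read 3.19, 1.69, 1.63 and 1.55, the first value belonging to 1 sample and the rest to the other. The 8 epithelium arrays lay between -1.38 and -0.76, so the lowest adenoma array was well above the highest epithelium array. The difference was 3.45 ± 0.35 (SE, 4 and 6 samples, limma adjusted p = 0.000127), and it held its call under every alternative run, with values from 2.55 to 3.84. The group means stood in the order untreated adenoma (2.41 ± 0.16, SD, n = 2), treated adenoma (2.41 ± 1.11, n = 2), tumor-free epithelium (-0.97 ± 0.19, n = 3) and tumor-bearing epithelium (-1.11 ± 0.24, n = 3), with overlap within each tissue. The other Tcf7 probe was dimmer, was above background on 11 of 15 arrays, and gave a difference in the same direction that was not called (1.65 ± 0.61, limma adjusted p over all probes = 0.0910).

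Lef1 is the factor closest to Tcf7 in its known uses, in lymphocytes, hair follicles and Wnt-driven tumors. Its brightest probe (chr3:131060609-131060668, plus strand) read 1.61, 1.66 and 2.92 on the untreated adenoma arrays and 3.68, 3.26, 3.20 and 3.28 on the treated adenoma arrays. The tumor-free epithelium arrays read -0.19, -1.07, -2.49 and -2.59, and the tumor-bearing arrays -2.20, -1.03, -2.17 and -3.95. Lef1 thus had the widest range over samples of any member that was above background on every array, 7.63 on the log2 scale, and much of that spread lay within the epithelium. The difference between adenoma and epithelium was 4.70 ± 0.63 (limma adjusted p = 0.000671), from 3.27 to 5.09 over the alternatives, all called. Group means ran from treated adenoma (3.46 ± 0.30, SD, n = 2) through untreated adenoma (2.28 ± 0.91, n = 2) and tumor-free epithelium (-1.27 ± 1.19, n = 3) to tumor-bearing epithelium (-2.39 ± 1.47, n = 3).

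The intron-crossing Lef1 probe printed above gave the same direction near its detection limit. It was well above background on all 7 adenoma arrays, on 1 of 4 tumor-free epithelium arrays and on none of the 4 tumor-bearing epithelium arrays. Lef1 RNA read by this probe was higher in adenoma than in epithelium (limma adjusted p over all probes = 0.00293). Dim probes were filtered: 1 or more compared groups had to be above background on all unflagged arrays. This probe passed that filter only through adenoma, so its direction is partly set by it. The fold was 7.97 with tumor-bearing epithelium raised to the lowest signal that counted as above background. Tumor-free epithelium entered at its measured mean, so this is not a strict lower bound. Below, "at least" is kept for comparisons in which no array of the dim side was above background. There the measured mean of the brighter side is set against dim arrays raised to that lowest signal. The remaining Lef1 probe (chr3:130953629-130953688) was above background on 2 of 14 measured arrays and was not tested. It was designed on a cDNA clone, as the brightest Lef1 probe also was, and the intron-crossing probe on the RefSeq transcript.

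Tcf7l1, which encodes the repressor Tcf3, ran the opposite way. Its brightest probe (chr6:72645159-72645218, minus strand) read 0.95, 0.90 and -0.69 on the untreated adenoma arrays and between 0.56 and 0.77 on the treated ones. The tumor-free epithelium arrays read 4.32, 4.98, 4.21 and 4.14, and the tumor-bearing epithelium arrays 4.79, 4.96, 4.77 and 2.25. The fourth tumor-bearing array was the only epithelium array under 4, and it still lay above every adenoma array. The difference was -3.86 ± 0.57 (limma adjusted p = 0.00114), between -4.30 and -3.46 over the alternatives, all called. The second Tcf7l1 probe fell by 3.94 ± 0.79 on the log2 scale (limma adjusted p over all probes = 0.00766), so both probes of the gene passed.

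Tcf7l2, the factor known for the crypt stem cell programme, was lower in adenoma by a smaller amount that did not pass. Its brightest probe (chr19:55848072-55848131, plus strand) read 2.31, 2.30 and 2.21 in untreated adenoma and 3.63, 3.81, 3.79 and 3.76 in treated adenoma. The tumor-free epithelium read 4.63, 4.81, 3.81 and 3.43, and the tumor-bearing epithelium 3.91, 4.64, 3.89 and 2.66, so that treated adenoma lay inside the epithelial range and untreated adenoma below it. The difference was -1.06 ± 0.43 (95% interval -2.01 to -0.11, limma adjusted p = 0.102). Without the fourth tumor-bearing epithelium array it was -1.33 (adjusted p = 0.0189) and was called, as it was with shared RNA as a random block (adjusted p = 0.039). The 3 other Tcf7l2 probes gave differences of -0.76, -0.47 and -0.28, none called.

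**Figure D1:**
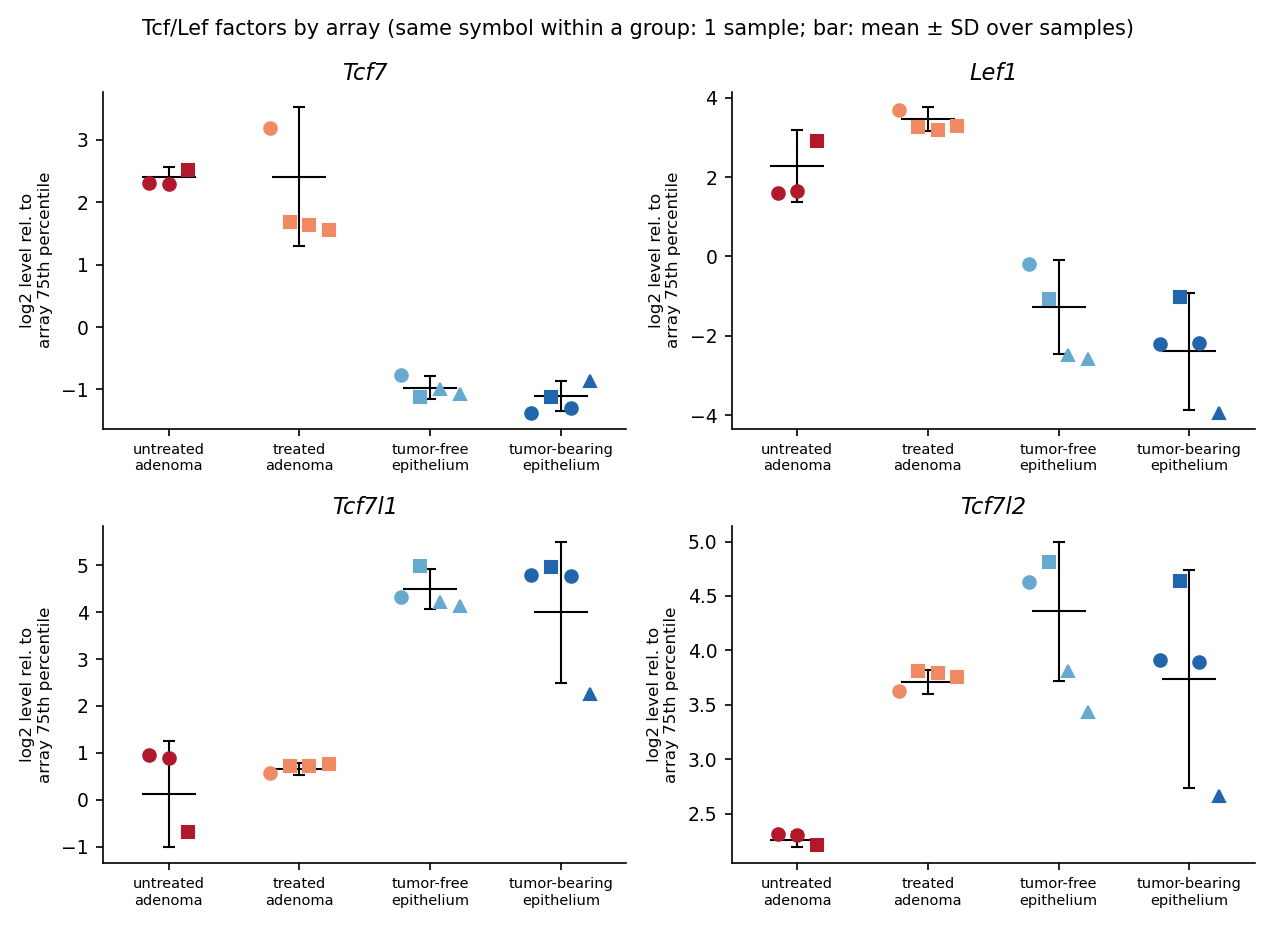
Log2 level of the brightest probe of Tcf7, Lef1, Tcf7l1 and Tcf7l2 on each array, relative to the array's 75th percentile, in the 4 groups; arrays drawn with the same symbol within a group were averaged to 1 sample, and bars give the mean ± SD over samples. Tcf7 and Lef1 are high in adenoma and low in epithelium and Tcf7l1 is the reverse, while Tcf7l2 is lowest in untreated adenoma (2.21 to 2.31).

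The destruction complex showed no called change between adenoma and epithelium. Apc, its scaffold and the gene mutated in these mice, read 0.89, 1.07 and 0.95 on the untreated adenoma arrays with its brightest probe (chr18:34697260-34697319, plus strand). The treated adenoma arrays read 2.01, 0.79, 0.73 and 0.80, and the epithelium arrays lay between 0.29 and 1.38, so the groups overlapped. The difference was 0.24 ± 0.34 (95% interval -0.52 to 1.01, limma adjusted p = 0.631). This probe was designed on a cDNA clone rather than on the RefSeq transcript.

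The 5 other Apc probes did not follow it closely. The pair of neighbouring probes at chr18:34693915-34694030, of which 1 was printed in 10 spots, both read the third and the fourth tumor-free arrays highest of all. On these arrays the 10-spot probe read -1.83 and -1.71, against -5.08 to -3.18 on the other 13. The intron-crossing Apc probe (chr18:34647968-34652043) lay between -5.68 and -4.02 and gave a difference of -0.71 ± 0.28 (limma adjusted p over all probes = 0.107). Of the 5 Apc probes tested, 3 gave differences above 0 and 2 below, none called, and the remaining probe was above background on no array. Averaged over all probes, the Apc difference changed sign to -0.15.

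Axin1, the second scaffold, has 1 probe, printed above. It read -3.08, -2.54 and -1.93 on the untreated adenoma arrays and -6.00, -2.98, -2.88 and -2.97 on the treated ones. The epithelium arrays spread from -5.59 to -3.05, so untreated adenoma sat at the top of the range and the first treated array at the bottom. The difference was 0.87 ± 0.70 (limma adjusted p = 0.395).

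Gsk3b encodes the kinase that marks β-catenin for degradation. Its brightest probe (chr16:37950232-37950291, plus strand) read -0.23, -0.21 and -0.35 in untreated adenoma and 1.01, -0.96, -1.28 and -1.16 in treated adenoma. The epithelium arrays lay between -2.62 and 0.17, and only the first tumor-free and the fourth tumor-bearing arrays were above 0. The difference was 1.23 ± 0.69 (limma adjusted p = 0.222). The intron-crossing Gsk3b probe printed above was dimmer, was above background on 9 of 14 measured arrays, and gave 0.56 ± 0.64.

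Csnk1a1 encodes the casein kinase that phosphorylates β-catenin ahead of Gsk3b. With its brightest probe (chr18:61977602-61977661, plus strand) untreated adenoma read 3.71, 3.66 and 4.51, treated adenoma 4.69 to 4.96, and the epithelium arrays 3.46 to 4.28. The difference of 0.55 ± 0.30 was not called (limma adjusted p = 0.211). Its 5 probes gave differences from -0.56 to 0.55. It was called after quantile normalization (0.89, adjusted p = 0.0315), in the authors' deposited values (0.94, adjusted p = 0.0186), with each array as its own sample (0.51, adjusted p = 0.034) and with slide as a random block (0.51, adjusted p = 0.035). The mean over all probes gave -0.02. Quantile normalization also moved the median of all genes from -0.17 to -0.03.

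Btrc, the substrate receptor of the ubiquitin ligase for β-catenin, could not be measured. Its probe, the last of the sequences above, was well above background on 1 of 14 measured arrays, the third tumor-free array, and was not tested. Its values near background are drawn in the figure of these genes but are not read as levels.

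Ctnnb1, β-catenin, was not called with its brightest probe (chr9:120658490-120658549, plus strand). Untreated adenoma read 5.73, 5.62 and 5.71, treated adenoma 5.22 to 6.00, tumor-free epithelium 5.42 to 6.13, and tumor-bearing epithelium 5.30, 5.31, 5.21 and 4.20. The difference between adenoma and epithelium was 0.35 ± 0.34 (95% interval -0.41 to 1.11, limma adjusted p = 0.483). The arrays do not measure β-catenin protein, on which the complex acts.

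The 10-spot Ctnnb1 probe (chr9:120657994-120658053) varied far more between samples. It read 3.90, 3.89 and 3.07 in untreated adenoma and 3.92, 1.22, 1.17 and 1.14 in treated adenoma. Tumor-free epithelium read 3.69, 1.57, 3.62 and 3.59, and tumor-bearing epithelium 0.51 to 1.63. High and low arrays thus occurred within both treated adenoma and tumor-free epithelium. The low tumor-free array was the second, which nearly coincided with the second tumor-bearing array over all probes. The difference between tissues, 1.01 ± 0.63, was not called (limma adjusted p over all probes = 0.287). The third probe gave 0.82 ± 0.37.

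**Figure D2:**
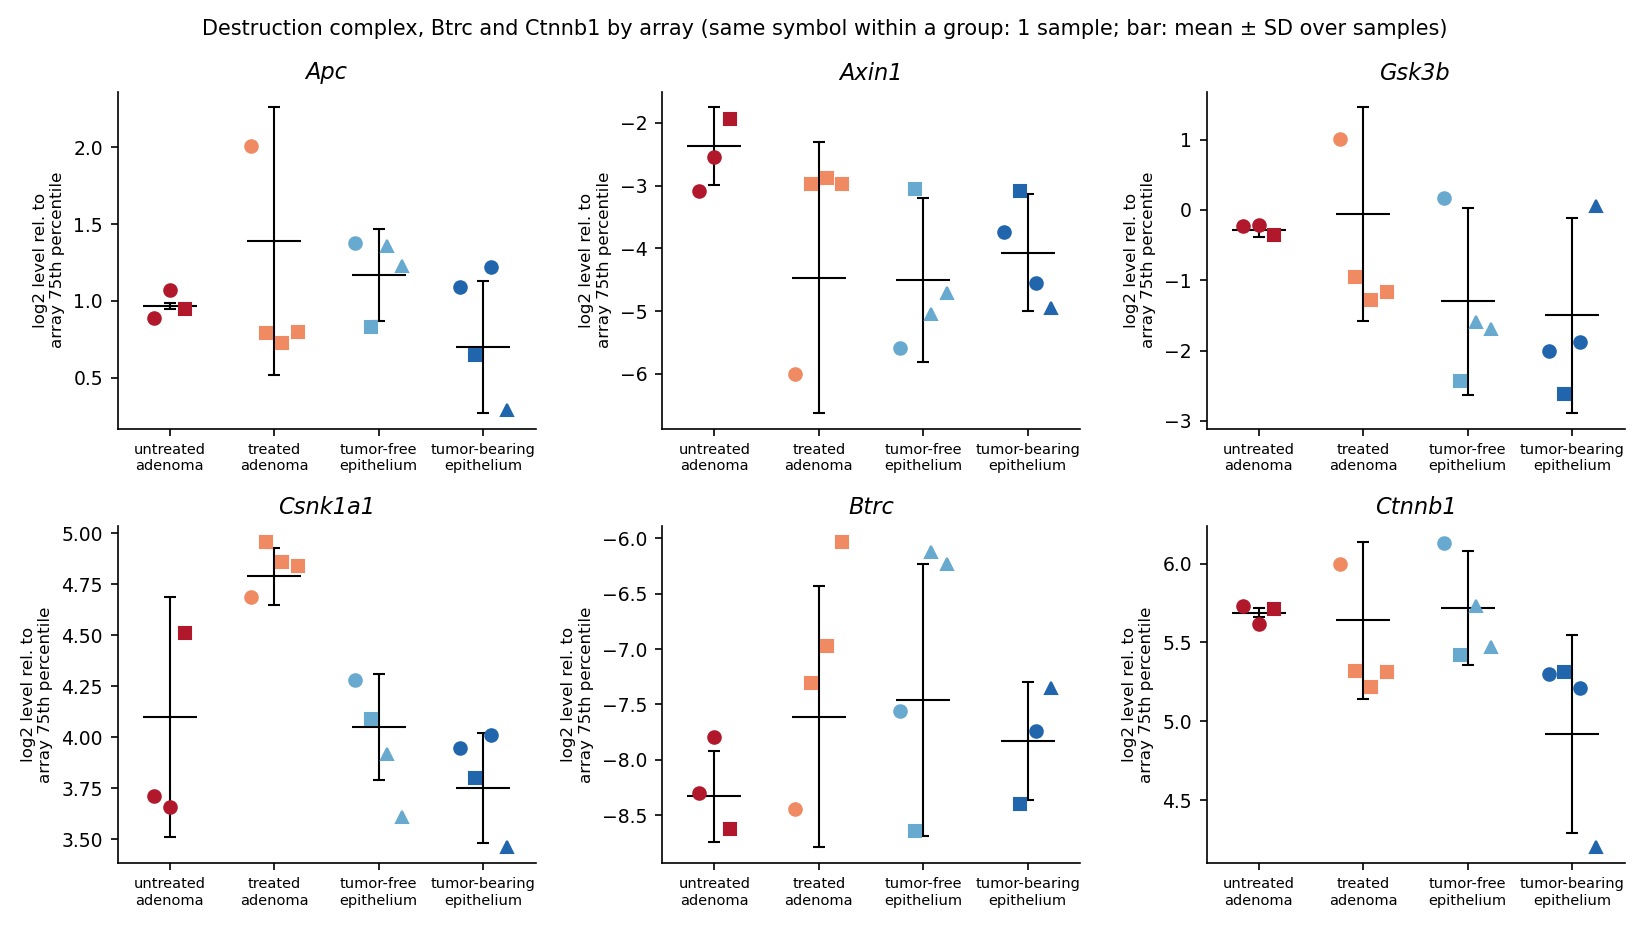
Log2 level of the brightest probe of Apc, Axin1, Gsk3b, Csnk1a1, Btrc and Ctnnb1 on each array, relative to the array's 75th percentile, in the 4 groups; arrays with the same symbol within a group were averaged to 1 sample and bars give the mean ± SD over samples. Adenoma and epithelium overlap for Apc, Axin1, Gsk3b, Csnk1a1 and Ctnnb1. Btrc is near background, with 1 array well above it, and its values are not read as levels.

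**Figure D3:**
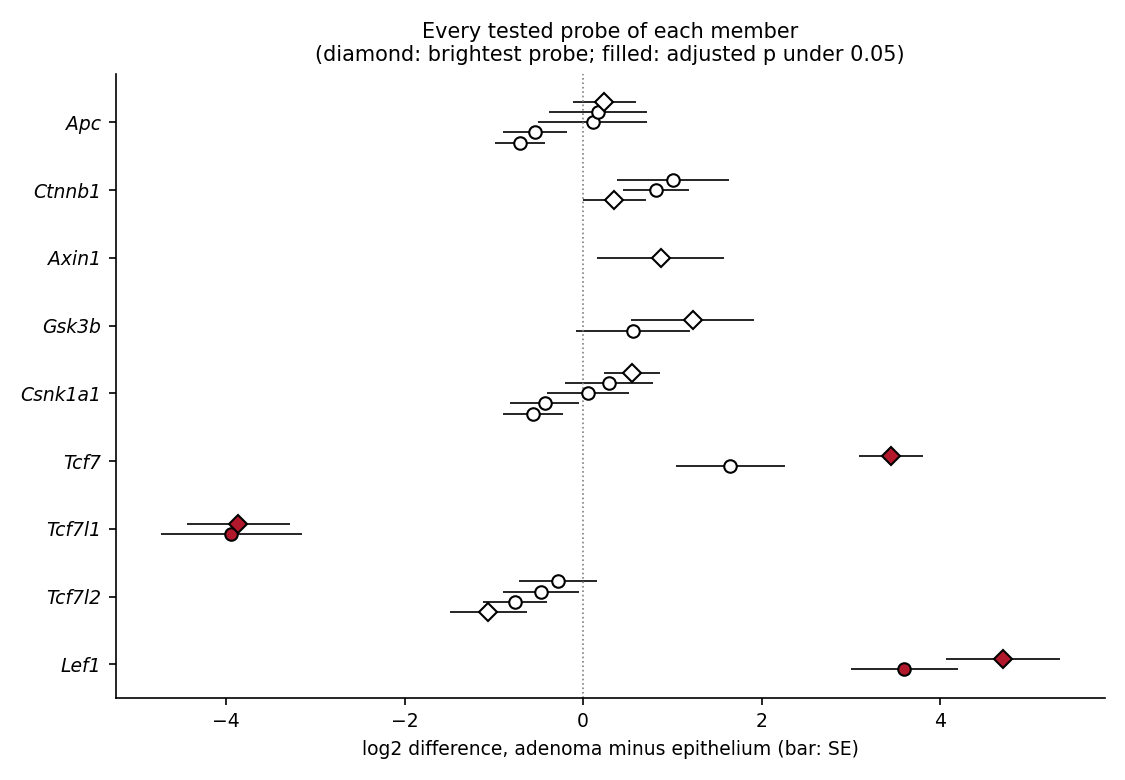
Log2 difference of adenoma minus epithelium (horizontal axis, bars give the SE) for each of the 26 tested probes of 9 members, with the brightest probe of each gene as a diamond and called probes filled. Called are 1 Tcf7, 2 Lef1 and 2 Tcf7l1 probes. The dimmer Lef1 probe's plotted 3.60 is a fitted value of uncertain size, since 1 of 8 epithelium arrays was above background.

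With each probe as its own feature, 5 of 26 tested member probes were called, 3 higher and 2 lower, where 17.3% of all probes were called. Of the 3 higher, the intron-crossing Lef1 probe passed the filter on dim probes only through adenoma. The probes of Tcf7, Tcf7l1, Tcf7l2 and Lef1 did not disagree in direction within any of these genes, nor did those of Ctnnb1 and Gsk3b, whereas those of Apc and Csnk1a1 did.

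Each adenoma group was also set against tumor-bearing epithelium alone, a group that serves in both comparisons. In untreated adenoma Tcf7 was higher by 3.51 ± 0.49 (2 and 3 samples, limma adjusted p = 0.00191), Lef1 by 4.67 ± 0.89 (adjusted p = 0.00924), and Tcf7l1 fell by 3.88 ± 0.80 (adjusted p = 0.0134). These 3 of 9 members were called, where 12% of all genes were (5.31% higher and 6.65% lower). The second Tcf7l1 probe gave -3.97 ± 1.11 and was not called (limma adjusted p over all probes = 0.0538). Without the third untreated adenoma array, which leaves 1 sample assumed to vary like the rest, only Tcf7 was called, and Lef1 (4.02, adjusted p = 0.108) and Tcf7l1 (-3.07, adjusted p = 0.149) were not. Tcf7l2 was lower by a value of -1.48 ± 0.60 that was not called (adjusted p = 0.138), but was called without the fourth tumor-bearing array (-2.01, adjusted p = 0.0242). Ctnnb1 was 0.77 ± 0.48 higher, not called (adjusted p = 0.310), but was called in the authors' deposited values (1.47, adjusted p = 0.0371).

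In treated adenoma the same 3 members were called, where 13.6% of all genes were (6.6% higher and 7.04% lower). Tcf7 was higher by 3.52 ± 0.49 (limma adjusted p = 0.00142) and Lef1 by 5.85 ± 0.89 (adjusted p = 0.00236). Tcf7l1 fell by 3.35 ± 0.80 (adjusted p = 0.0221), a call that was lost without the second epithelium arrays of both groups (-2.87, adjusted p = 0.0772), without the first treated array (-3.26, adjusted p = 0.134), without the second to the fourth treated array, which were averaged (-3.44, adjusted p = 0.0922), without the second tumor-bearing array (-2.87, adjusted p = 0.0643), without the first and the third tumor-bearing array, which were averaged (-2.96, adjusted p = 0.0672), and with the mean over probes (-3.12, adjusted p = 0.0535). Csnk1a1 was 1.04 ± 0.42 higher, not called (adjusted p = 0.125), but was called under 6 alternatives, among them quantile normalization (adjusted p = 0.0211), the authors' deposited values (adjusted p = 0.017) and shared RNA as a random block (adjusted p = 0.0377). The intron-crossing Lef1 probe put Lef1 at least 3.95-fold higher in untreated and at least 9.94-fold higher in treated adenoma than in tumor-bearing epithelium. In treated adenoma the second Tcf7l1 probe gave -2.89 ± 1.11 and was not called (limma adjusted p over all probes = 0.124). On that probe the fourth tumor-bearing array (-0.04) lay below the second treated array (0.11).

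Arrays scanned on the same day allowed these differences to be read within a day. Untreated adenoma exceeded tumor-bearing epithelium in Tcf7 by 3.55 and 3.57 on the 2 days they shared, and in Lef1 by 3.23 and 3.83. Tcf7l1 was lower by -3.93 and -3.87 on those days. For treated adenoma the 2 shared days gave 4.48 and 2.56 for Tcf7, 5.85 and 7.21 for Lef1, and -4.21 and -1.53 for Tcf7l1, the last from the fourth tumor-bearing array. Every one of these differences had the direction of the pooled one. The days are not independent, since the untreated adenoma arrays of both days were averaged to 1 sample, and so were a tumor-bearing array of each day. Tumor-free epithelium shared no day with any other group.

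Drug exposure was compared between the adenoma groups, 2 samples against 2. None of the 9 tested members was called, where 0.221% of all genes were (39 of 17637, 0.119% higher and 0.102% lower). With its brightest probe, no member had an unadjusted p under 0.05. The design gave wide intervals: Tcf7 differed by 0.00 (95% interval -1.20 to 1.20), Lef1 by 1.18 (-1 to 3.37), Tcf7l1 by 0.53 (-1.44 to 2.50) and Ctnnb1 by -0.05 (-1.23 to 1.12). The unadjusted p was smallest for Tcf7l2.

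Tcf7l2 was the member nearest to a call in that comparison. Its samples did not overlap (2.30 and 2.21 untreated, 3.63 and 3.79 treated), and the difference was 1.45 ± 0.66 (95% interval -0.02 to 2.92, unadjusted p = 0.0522, limma adjusted p = 0.421). All 4 Tcf7l2 probes were higher in treated adenoma, by 0.29, 0.74, 1.45 and 2.66, of which the last had an unadjusted p of 0.00304 and an adjusted p over all probes of 0.238. Within the 2 scan days that both groups shared, the brightest probe differed by 1.33 and 1.56. Axin1 had a larger difference, -2.10 ± 1.09, which was not called (adjusted p = 0.485) and was -0.57 without the first treated array. Apart from Tcf7l2 and Axin1, the 2 and 2 samples did not overlap for Csnk1a1 (0.69 ± 0.46) and Lef1 either. These 4 of 9 members stand against 46.9% of all genes tested whose samples did not overlap, a share near that of the members. Agreement between probes was not particular to Tcf7l2. Every Csnk1a1 probe was higher in treated adenoma too, by 0.69, 0.73, 0.75, 1.92 and 2.12, none called. The differences of 1.92 and 2.12 had unadjusted limma p of 0.0233 and 0.02, and adjusted p over all probes of 0.372 and 0.36. All tested probes of Lef1 and Tcf7l1 were higher as well, while those of Apc, Ctnnb1 and Gsk3b differed in sign.

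Tumor-bearing and tumor-free epithelium, 3 samples each, did not differ in a called way for any member, and limma called none of the 17657 genes tested (0%, with 500 at an unadjusted p under 0.05). With the brightest probes, the member differences, tumor-bearing minus tumor-free, ran from -1.12 ± 0.79 for Lef1 to 0.44 ± 0.88 for Axin1. Ctnnb1 was the member whose samples did not overlap, at -0.80 ± 0.43 (limma adjusted p = 0.994), where 7.44% of all genes tested did not overlap. The intervals were -1.11 to 0.84 for Tcf7 and -2.08 to 1.09 for Tcf7l1.

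**Figure D4:**
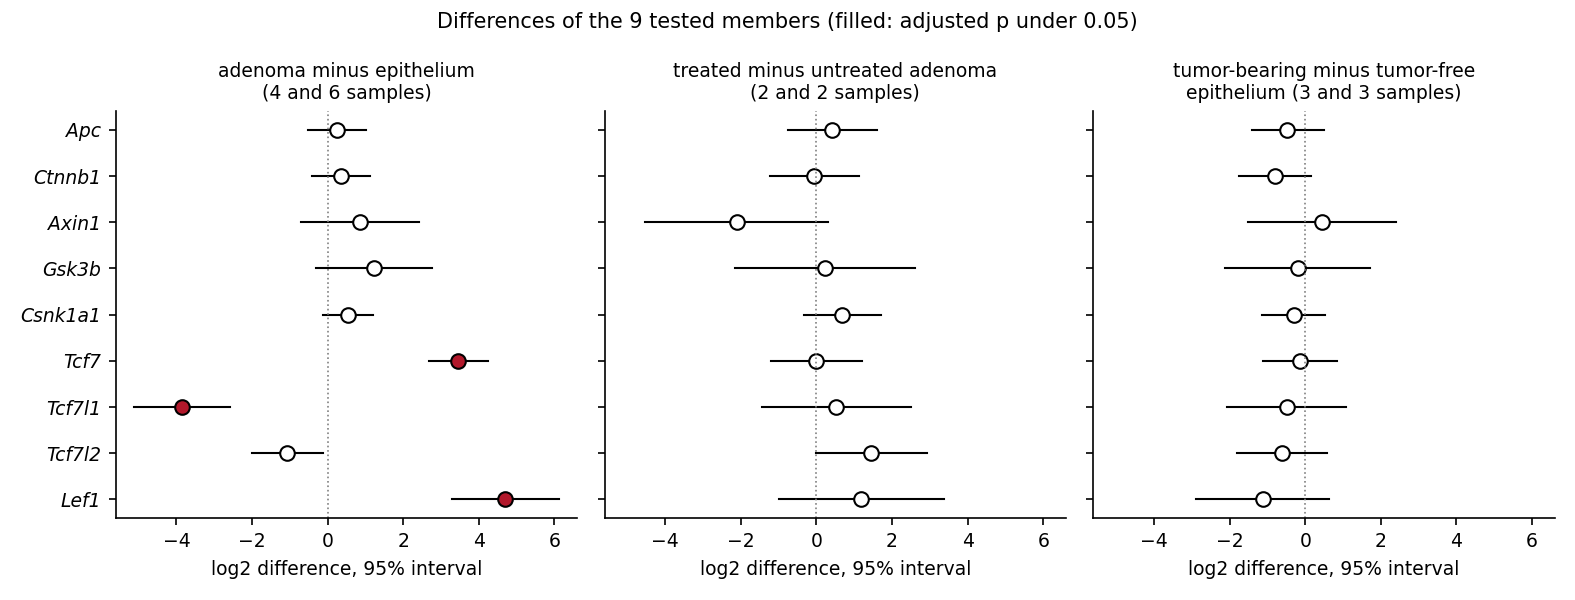
Log2 differences (points) with 95% intervals (lines) of the 9 tested members in 3 comparisons: adenoma minus epithelium, treated minus untreated adenoma, and tumor-bearing minus tumor-free epithelium. Tcf7, Lef1 and Tcf7l1 are filled (called) in the tissue comparison, and no member is filled in the other panels.

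Because Tcf7 and Lef1 are expressed in T cells, a list of 15 T cell genes was read in the same samples. Their summed level, in units of each array's 75th percentile, was 4.18 to 6.43 in untreated adenoma, 3.11 to 6.46 in treated adenoma, 4.86 to 6.35 in tumor-free and 4.74 to 5.96 in tumor-bearing epithelium, so the groups overlapped. These sums weigh Cd8b1 most, the tested gene with the highest log2 mean in every group (1.40, 1.27, 1.85 and 1.58 in that order). They say little of the dimmer genes. Of the 14 T cell genes tested, 2 were called higher in adenoma and none lower, with a median of -0.01. Of all genes tested, 9.13% were called higher and 12.6% lower. The 2 were Zap70 (2.59 ± 0.71, above background on 2 of 4 tumor-bearing epithelium arrays) and Ccr7 (at least 2.43-fold). Ccr7 passed the filter on dim probes only through adenoma, so its direction is partly set by it. Of the 15, 13 were above background on every array in untreated adenoma, 10 in treated adenoma, 12 in tumor-free and 6 in tumor-bearing epithelium. The receptor genes Cd3d (-0.56), Cd3e (-0.70) and Cd3g (0.81) were not called. The part of T cells in the Tcf7 and Lef1 differences was not tested. In microdissected tissue fewer cells of a type and less RNA per cell cannot be told apart.

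Genes of some other cell types differed between the tissues, where 12.6% of all genes tested were called lower in adenoma. B and plasma cell genes summed to 1.01 to 1.41 in adenoma and 24.2 to 50.2 in epithelium, with 4 of 5 tested called lower, among them Jchain (-8.64 ± 0.49, above background on 2 of 4 treated adenoma arrays). Jchain weighs most in the epithelium sums, with log2 means of 4.41 in tumor-free and 4.65 in tumor-bearing epithelium. Smooth muscle genes summed to 11.8 to 14 in untreated and 23 to 28.6 in treated adenoma. In epithelium they summed to 27.2 to 54.1 (tumor-free) and 42.7 to 56.2 (tumor-bearing), so treated adenoma and tumor-free epithelium overlapped. Of the 6 genes 4 were called lower, among them Cnn1 (-3.40 ± 0.33). In treated adenoma against tumor-bearing epithelium alone, 1 of 5 was. The B and plasma cell and the smooth muscle lists had the direction of Tcf7l1, and their part in its difference was not tested. Fibroblast sums overlapped (142 to 228 in adenoma and 111 to 174 in epithelium), as did those of macrophage and endothelial genes. Among the 10 epithelial genes, 4 were called lower in adenoma, including the differentiation keratin Krt20 (-3.97 ± 0.85) and the intestinal factor Cdx2 (-2.65 ± 0.76). Cdx2 was low in treated adenoma only (-1.61 ± 1.91, SD, n = 2). Its mean was 3.58 in untreated adenoma, 3.42 in tumor-free and 3.85 in tumor-bearing epithelium. Against tumor-bearing epithelium alone, none of the 10 was called in untreated adenoma and 2 were called lower in treated adenoma.

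The genes that surround these members in the pathway were read from lists by role, for adenoma minus epithelium. In this comparison 9.13% of all genes tested were called higher and 12.6% lower. Of 23 Wnt and R-spondin ligands on the array, 15 were tested, all of them Wnt genes, and 8 did not pass the filter on dim probes, among them all 4 R-spondins. In adenoma 7 were called higher, but 5 of these (Wnt3, Wnt5a, Wnt9a, Wnt10a and Wnt16) passed the filter only through adenoma, so their count and direction are partly set by it. Wnt6 (3.89) and Wnt11 (2.00) were above background on every array of both tissues. Wnt10a (fitted difference 7.34 ± 0.46, limma adjusted p = 7.97e-06) was above background on 2 of 4 arrays in each epithelium group and Wnt3 (7.01 ± 0.67) on 1 of 4 in each, so the size of either difference is uncertain. Wnt16 was above background on all 7 adenoma arrays and no epithelium array, at least 22.7-fold higher. Of 18 receptors and Dishevelled genes, 4 were called higher and 3 lower (median 0.13), of which Fzd3 and Ror1 passed the filter only on the side where they were brighter. Fzd10 (4.11 ± 0.96) and Fzd2 (1.76 ± 0.56) were higher, and Fzd5 (-2.68 ± 0.79) and Fzd8 (-2.33 ± 0.35) lower. Fzd10 was above background on 2 of 4 tumor-bearing epithelium arrays. Fzd3 (fitted difference 3.64 ± 0.91) was above background on 1 of 4 arrays in each epithelium group, and the non-canonical receptor Ror1 was at least 2.89-fold lower.

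Of 21 partners of the destruction complex, 4 were called (19%, against 21.7% of all genes). Axin2, the Wnt-induced relative of Axin1, was higher by 3.32 ± 0.32 (limma adjusted p = 9.41e-05), and the casein kinase Csnk1e by 1.95 ± 0.34. The GSK3-binding proteins Frat1 and Frat2 fell by 2.42 ± 0.35 and 1.72 ± 0.43. The list's median was -0.10. Of 24 nuclear cofactors 3 were called (12.5%), all higher: Sox17 (2.91 ± 0.47), Pygo1 (fitted difference 2.34 ± 0.51) and the β-catenin-binding Bcl9 (1.30 ± 0.39). Pygo1 passed the filter only through adenoma and was above background on 1 of 8 epithelium arrays, so the size of its difference is uncertain. Of 7 tested adherens junction genes, which hold the other pool of β-catenin, P-cadherin (Cdh3, 1.61 ± 0.40) was called higher, and the median was -0.50.

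Of 18 listed targets of Tcf/Lef and β-catenin, all of them tested, 15 were called higher in adenoma and none lower, with a median of 3.11 against -0.17 for all genes. Of the 15, 11 were also above background on every array of an epithelium group, and Notum, Sp5, Dkk2 and Prox1 were not. Among them were the Wnt antagonist Dkk2 (fitted difference 10.95 ± 0.46), the protease Mmp7 (10.29 ± 0.70) and the transcription factor Sp5 (fitted difference 9.43 ± 0.92). Sp5 was above background on 1 of 4 tumor-free and 3 of 4 tumor-bearing epithelium arrays. Dkk2 was above background on 1 of 4 tumor-free arrays and no tumor-bearing epithelium array, so the size of its difference is uncertain. The 3 not called were Ascl2 (-0.78 ± 0.45), Ccnd1 (1.23 ± 0.50) and Ephb3 (0.50 ± 0.32). Axin2 stands in this list and among the complex partners.

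**Figure D5:**
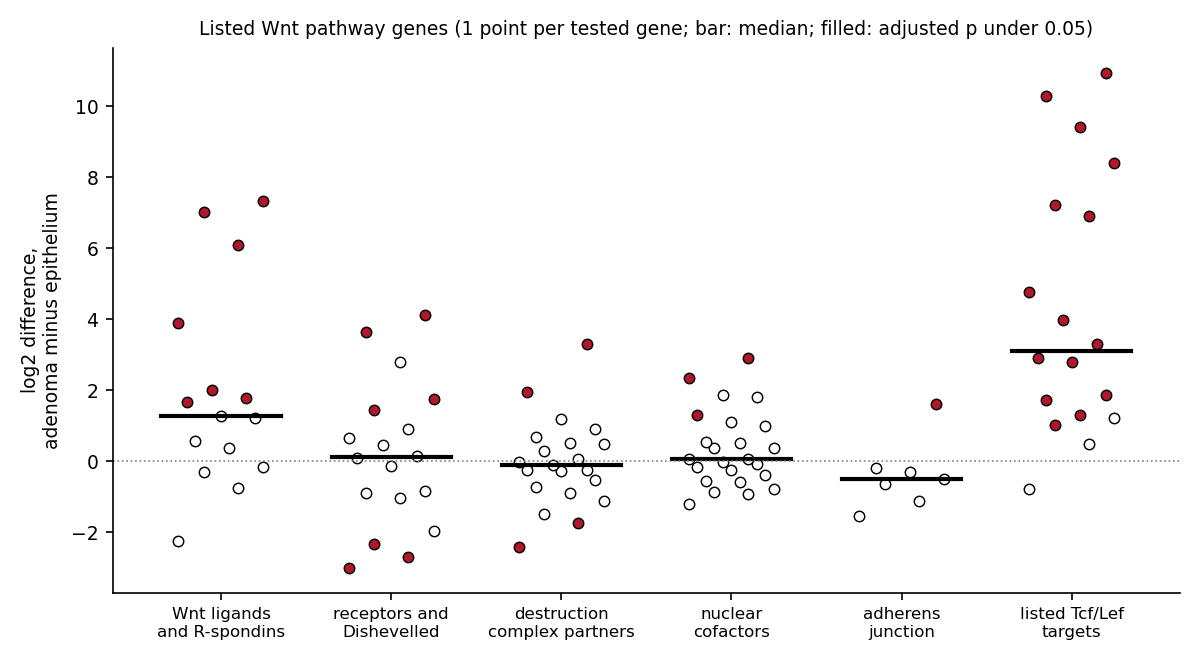
Log2 difference of adenoma minus epithelium for each tested gene of 6 Wnt pathway lists, with called genes filled and a bar at each list's median. The listed Tcf/Lef targets have a median of 3.11 with 15 of 18 called higher, and the destruction complex partners a median of -0.10 with 2 of 21 higher and 2 lower.

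Against tumor-bearing epithelium alone, 13 of 18 targets were called higher in untreated and 11 of 18 in treated adenoma, and none lower in either. Of all genes tested, 5.31% and 6.6% were called higher. In each comparison 4 of the called targets (Notum, Sp5, Dkk2 and Prox1) passed the filter only through adenoma, and 9 and 7 passed it on both sides. Dkk2 was at least 379-fold higher in untreated and at least 547-fold higher in treated adenoma. Notum, a secreted Wnt inhibitor, was at least 171-fold and at least 440-fold higher, and Mmp7 by 9.86 ± 0.98 and 9.34 ± 0.98. Axin2 was higher by 3.04 ± 0.45 and 3.91 ± 0.45, and Frat1 fell by 2.54 ± 0.49 and 2.99 ± 0.49. Of the ligands, 6 of 12 tested were called higher in untreated and 4 of 10 in treated adenoma, where 5 and 3 of them passed the filter only through adenoma. Wnt16 was at least 6.44-fold and at least 37.1-fold higher. Wnt3 and Wnt10a were called in both, but were above background on 1 of 4 and 2 of 4 tumor-bearing epithelium arrays.

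Fewer of the other lists were called in these comparisons. In untreated adenoma Fzd6 was higher (2.35 ± 0.59), Fzd5 (-4.39 ± 1.11) and Fzd8 (-2.83 ± 0.49) were lower, Cdh3 was higher (2.30 ± 0.57, above background on 1 of 4 epithelium arrays) and the helicase Chd8 was lower (-1.95 ± 0.56). In treated adenoma Fzd10 (5.69 ± 1.35, above background on 2 of 4 epithelium arrays), Csnk1e (1.96 ± 0.47) and Sox17 (4.86 ± 0.66) were higher and Fzd8 (-1.97 ± 0.49) was lower, and no adherens junction gene was called.

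Between treated and untreated adenoma, 1 gene of the 6 lists was called. Wnt5a, a ligand of the non-canonical branch, was above background on all 3 untreated arrays and none of the 4 treated arrays, at least 3.23-fold lower in treated adenoma (limma adjusted p = 0.0386). It passed the filter only through untreated adenoma, and the genes called in this comparison went from 39 to 1 without the first treated array. None of the 18 targets was called (median 0.10), nor any gene of the other 4 lists, and no listed gene was called between the epithelia.

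By the rule of smallest root mean square difference of centred log2 levels over the 10 samples, the genes most like Lef1 among 12268 compared were Entpd3 (0.77), an ectonucleotidase, Clec5a (0.78), a lectin receptor of myeloid cells, Isl1 (0.78), a homeodomain factor, Arl4c (0.85), a small GTPase, and Pdgfrl (0.88). On this log2 scale the likeness covers the gap between tissues as well as the spread within them. No test was made of it.

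RefSeq promoter windows (GRCm38.p6, 250 bases before and 50 after a start) were read for 6 of the members, with 12 windows in all. They are given because Lef1 and Tcf7 are known Wnt targets and were called higher in adenoma, as 15 of the listed targets were. The core Tcf/Lef motif was searched as CTTTG followed by AA, AT, TA or TT on both strands, and stood in 16.9% of all 32851 windows. Among the members it stood in 2 of the 12 windows, 1 of 4 for Lef1 and 1 of 2 for Tcf7l2, and in neither Tcf7 window. Each belongs to the most downstream start listed for its gene, at chr3:131156117-131156183 for Lef1 and chr19:55895277-55895320 for Tcf7l2, plus strand, with the match in capitals. A match is a description of the letters and not of binding.
Lef1: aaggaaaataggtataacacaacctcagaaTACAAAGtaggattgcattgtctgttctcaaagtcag
Tcf7l2: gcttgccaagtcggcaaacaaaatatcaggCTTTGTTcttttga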

How the data were processed

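Expression was measured on 15 1-colour Agilent whole mouse genome arrays after amplification of 10 ng of microdissected RNA and Cy3 labelling, per the labels' protocols. Spots were quantified in Agilent Feature Extraction 9.5.3, per the submitters' processing notes. The deposited spot intensity was background-subtracted and detrended within each array and not normalized between arrays, per the file headers. The deposited value table of the authors, on a log2 scale, served as an alternative; how its background was corrected is unknown, its columns share 1 distribution, and its 4 columns for tumor-bearing epithelium matched that group's scanner files in reverse order. Coordinates of probes come from the design of the array (mm7).

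Processed intensity was log2-transformed and each array's 75th percentile over non-control spots subtracted. Control spots and outlier flags were left out, spots of a probe averaged, and the probe with the highest mean over all arrays used for each gene. Probes were named through RefSeq accessions or symbols, where possible (22951 of 41174 by accession). Arrays of a group that differed by less than spot noise were averaged, which left 10 samples. All 4 groups were fitted together with limma 3.58.1 (R 4.3.3), two-sided, with Benjamini-Hochberg adjustment over all genes, for genes that 1 or more of the compared groups showed well above background on all of its unflagged arrays. The script was tested on simulated data. Members, lists and rules were chosen with earlier results of these data known. All members and probes are named, and for each pathway list the 3 called genes with the largest rises and falls; marker genes were picked after their values were seen. The number of arrays limits the precision.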

Additional observations from a re-analysis of the deposited data

How the results depend on the processing

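The calls of Tcf7, Lef1 and Tcf7l1 between adenoma and epithelium were kept under all 29 alternatives, and no called member changed direction in any comparison. Members called between adenoma and epithelium rose from 3 to 5 with each array as its own sample, to 5 with the replicate number as a block and to 6 with slide as a random block. Between treated and untreated adenoma they rose from 0 to 2 in those same 3 fits and to 1 with scan date as a block (Tcf7l2 in all 4, Csnk1a1 in 3). All genes called rose as well in those 3 fits, from 4113 of 18922 to 8995, 9336 and 8898 between adenoma and epithelium. Between the adenomas they rose from 39 of 17637 to 2462, 2639 and 2302, and to 2507 with scan date. The larger member counts are therefore not read as a result about the members. These 4 fits count near-identical arrays as separate samples. Replicate numbers did not pair the samples (21 same-number pairs, r from -0.30 to 0.522), and the block raised all genes called from 39 to 2639 between the adenoma groups. Leaving out arrays gave 1 to 4 members called for untreated adenoma against tumor-bearing epithelium. Treating each probe as a feature, chosen after seeing the data, left the counts at 3, 0, 0, 3 and 3. The second Tcf7l1 probe was called only with the groups of each tissue pooled. Genes called ranged from 2467 to 9336 for adenoma against epithelium, 1 to 2639 between adenomas, 602 to 7472 for untreated and 894 to 7409 for treated adenoma against tumor-bearing epithelium. Scan date as a block gave no value for comparisons with tumor-free epithelium.

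Values not called that changed sign follow, as log2 differences; where no value shows the cause, the cause was not tested. With the mean over all probes, Apc gave -0.15 and Csnk1a1 -0.02 between tissues, Ctnnb1 0.21, Gsk3b -0.71 and Tcf7 -0.56 between adenomas, Apc 0.03 between epithelia, Apc -0.18 and Csnk1a1 -0.54 in untreated adenoma, and Apc -0.16 and Tcf7l2 0.34 in treated adenoma. With the replicate block, Apc gave -0.03 between tissues, Gsk3b -0.42 and Tcf7 -0.32 between adenomas, and Axin1 0.38 in treated adenoma. With each array separate, the same 3 latter values were -0.33, -0.35 and 0.38. With the slide block they were -0.45, -0.35 and 0.54, with Tcf7l2 at 0.15 in treated adenoma. With the scan date block, Ctnnb1 was 0.06, Gsk3b -0.55 and Tcf7 -0.29 between adenomas, and Axin1 0.03 and Tcf7l2 0.23 in treated adenoma. Tcf7 between adenomas was -0.02 both in the authors' table and with shared RNA as a random block. Tcf7l2 in treated adenoma was 0.40 after quantile normalization and 0.29 in the authors' table. Without the near-identical pair, Axin1 was 0.08 and Tcf7l2 0.43 there.

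Leaving out 1 array at a time moved Apc from -0.07 to 0.30 between tissues. Between adenomas the ranges were -0.20 to 0.47 for Apc, -0.85 to 0.26 for Gsk3b, -0.78 to 0.12 for Tcf7 and -0.28 to 0.62 for Tcf7l1. Between epithelia they were -0.10 to 1.17 for Axin1, -0.98 to 0.53 for Gsk3b and -0.98 to 0.38 for Tcf7l1. Csnk1a1 ran from -0.06 to 0.38 in untreated adenoma, and Axin1 from -0.85 to 1.12 and Tcf7l2 from -0.56 to 0.43 in treated adenoma. Leaving out averaged arrays together gave -0.11 for Tcf7 between adenomas without the first and second untreated arrays, and 0.30 for Ctnnb1 without the second to the fourth treated arrays. Without the first and the third tumor-bearing arrays Gsk3b was 0.02 between epithelia and Tcf7l2 was 0.05 in treated adenoma.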
